A study of Mus musculus with 12 samples.

Results

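The genes described here make, move, store or export cholesterol, or are switched on by the liver X receptors (LXRs), the sterol-sensing receptors of the nucleus. They were followed in a macrophage-like mouse line, RAW264.7, kept in 4 culture media. They were chosen by name, as 34 genes of known role in the pathway, with earlier results of these data known. The arrays' gene table named 31 of them, out of 30464 named genes in all, each by a single probe set. Srebf1 and Tm7sf2 lie on probe sets shared with another gene and were left out, and Soat1 was not analysed here. Of the 31, 30 were brighter than the median probe set on all 12 arrays and entered the tests. Ch25h, which makes 25-hydroxycholesterol, was below that median on every array (4.57 to 4.73 on the log2 scale) and was not tested. Since the other 30 exceeded the median in each group, none entered the tests through the group in which it was high.

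The labels name 4 groups of 3 arrays, 1 array per sample, with RNA taken after 24 h. RAW264.7 cells grew in normal medium (replicates 2, 3 and 4), in SCR medium, conditioned by SCR PyMT-41C cells (replicates 1, 3 and 4), in KO medium, conditioned by JMJD6-KO PyMT-41C cells (replicates 1, 2 and 3), or in SCR medium with CSH, named in the labels as a blocker of ANXA-1 receptor (replicates 1, 2 and 4). Conditioned medium made up 50% of the mixture and RPMI with 10% FBS the remainder. The JMJD6 knockout is carried by the PyMT-41C cells, not by the RAW264.7 cells measured. Whether the knockout line is a single clone is not given in the sources used here, and the labels name neither a group with CSH in normal medium nor a vehicle group. Nothing in them says that replicates were separate cultures, and the p-values therefore rest on a spread among arrays that may be technical.

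Cholesterol is built from acetyl-CoA by way of mevalonate, farnesyl diphosphate and squalene. When sterol in the endoplasmic reticulum runs low, Scap carries the SREBP2 precursor, the product of Srebf2, to the Golgi, where cleavage frees a factor that activates the synthesis genes; Insig proteins hold Scap back when sterol is plentiful. Macrophages also take in cholesterol with lipoproteins and dying cells, release it in lysosomes through Lipa, Npc2 and Npc1, and pass the excess to lipoproteins through LXR-induced transporters such as Abca1 and Abcg1.

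The median log2 signal of an array lay between 5.40 and 5.52, and at most 3.23% of values were identical between any 2 arrays. Of 12 macrophage markers, 11 were above the array median on every array, among them Cd68, Lyz2, Tyrobp and Csf1r, and Mertk was below it on every array. In SCR medium 3 of the 11 tested rose, Itgam (0.97), Cd14 (0.61) and Fcer1g (0.33), and 5 fell, led by Csf1r (-1.79) and Adgre1 (-1.45). Among all genes tested, 19.3% rose and 15.8% fell in that comparison. The summed log2 signal of the 12 ran from 154.0 to 155.0 in normal, 151.3 to 153.0 in SCR, 152.1 to 153.2 in KO and 151.3 to 154.0 in CSH-treated medium. Of 12 mammary epithelial markers, Epcam, Cdh1 and Krt18 were among the 8 below the median on every array. Krt14 was above it on 12 arrays, Cldn4 on 10, and Krt8 and Csn3 on 8 each. The sum of all 12 markers was 60.5 to 60.6 in normal, 60.8 to 61.5 in SCR, 61.2 to 61.4 in KO and 60.8 to 61.4 in CSH-treated medium. Csn3 rose in SCR medium from 5.22 to 5.68. All 5 fibroblast markers named were below the median throughout, as were 5 of 7 lymphocyte markers, while Cd3g was above it on 12 arrays and Cd79a on 1. The part of these shifts in the results below was not tested.

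SCR medium was first set against normal medium, the question of how RAW264.7 cells respond to tumour cell medium. Of the 30 cholesterol genes, 4 rose, 12 fell and 14 did not pass. The rises were Npc1, Hsd17b7, Sc5d and Ggps1, from 1.53-fold to 2.00-fold. The falls were Pltp, Pmvk, Lipa, Mvd, Dhcr7, Mylip, Srebf2, Abcg1, Insig1, Lss, Nsdhl and Stard4, from 1.23-fold to 1.86-fold. A gene counted as changed when its adjusted p (limma, Benjamini-Hochberg over 18119 genes) was below 0.05. By that rule 35.2% of all genes tested changed, 19.3% up and 15.8% down, against 53.3% of the cholesterol genes. The median log2 change was -0.15 over the 30 genes and 0.02 over all genes. For 18 of the 30 the arrays of the 2 media did not overlap, 5 higher and 13 lower, against 43.3% of all genes, 23.5% higher and 19.7% lower.

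In the mevalonate part of the pathway, 1 of 6 enzymes rose, 2 fell and 3 did not pass in SCR medium. Over all genes tested, 19.3% rose and 15.8% fell. Pmvk, phosphomevalonate kinase (GRCm38.p6, chromosome 3, 89454541 to 89469014), read 8.37, 8.15 and 8.24 in normal medium and 7.53, 7.41 and 7.53 in SCR medium. It read 7.41, 7.30 and 7.38 in KO medium and 7.66, 7.74 and 7.68 with CSH. All conditioned arrays lay below all normal ones, and the fall in SCR medium was -0.76 (standard error, SE, 0.07, limma adjusted p = 2.08e-06, n = 3). Mvd, which decarboxylates mevalonate diphosphate (chromosome 8, 122433596 to 122443422), read 9.19, 8.78 and 8.97 in normal and 8.44, 8.31 and 8.40 in SCR medium. Its groups did not overlap, and it fell by 0.60 on the log2 scale (SE 0.09, limma adjusted p = 0.000161). Ggps1 makes geranylgeranyl diphosphate, a branch product used to anchor small GTPases to membranes. It read 9.07, 9.18 and 9.02 in normal medium, 9.84, 9.57 and 9.71 in SCR medium, 9.75, 9.63 and 9.83 in KO medium and 9.66, 9.66 and 9.79 with CSH. Each conditioned array was above each normal array, with a rise of 0.62 (SE 0.08) in SCR medium.

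The other enzymes of this stretch did not pass. Hmgcs1, HMG-CoA synthase and a classic SREBP2 target, averaged 10.06 ± 0.19 (SD, n = 3) in normal and 10.01 ± 0.20 in SCR medium, a difference of -0.05 with a 95% interval of -0.28 to 0.18. Mvk, mevalonate kinase, stood at 7.44 ± 0.11 and 7.50 ± 0.13. Fdps, farnesyl diphosphate synthase, differed by -0.27 (SE 0.11, limma adjusted p = 0.0718). The intervals of Hmgcs1 and Mvk spanned 0, those of Pmvk (-0.91 to -0.62), Mvd (-0.79 to -0.41) and Fdps (-0.50 to -0.04, which did not pass) lay below it, and that of Ggps1 (0.44 to 0.79) lay above it.

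From squalene to cholesterol, 2 of 9 enzymes rose, 3 fell and 4 did not pass in SCR medium. The shares of all genes were 19.3% up and 15.8% down. Hsd17b7, the 3-keto reductase that works on sterols after C4 demethylation (chromosome 1, 169949535 to 169969242), read 7.78, 7.59 and 7.38 in normal medium and 8.72, 8.38 and 8.45 in SCR medium. In KO medium it read 8.69, 8.54 and 8.61, and with CSH 8.42, 8.28 and 8.44. The groups were far apart, and the rise in SCR medium was 0.93 (SE 0.11, limma adjusted p = 1.99e-05). Sc5d, lathosterol oxidase, acts late in the route. It read 10.56, 10.58 and 10.62 in normal medium, 11.27, 11.12 and 11.26 in SCR medium, 11.23, 11.38 and 11.27 in KO medium and 11.41, 11.39 and 11.32 with CSH. The spread within each group was small beside the step of 0.63 (SE 0.06) in SCR medium. Dhcr7, which performs the last reduction to cholesterol (chromosome 7, 143823167 to 143848410), moved the other way. It read 8.22, 8.06 and 8.13 in normal, 7.57, 7.46 and 7.58 in SCR, 7.51, 7.43 and 7.25 in KO and 7.71, 7.81 and 7.64 in CSH-treated medium. No conditioned array reached a normal one, and the fall in SCR medium was -0.60 (SE 0.08).

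Lss, lanosterol synthase, and Nsdhl, of the C4 demethylation complex, fell by less in SCR medium. Their log2 changes were -0.35 (SE 0.10, limma adjusted p = 0.0183) and -0.32 (SE 0.09, limma adjusted p = 0.0157). Without normal replicate 2 these became -0.21 and -0.20 and lost the call (adjusted p = 0.0681 and 0.0606), and without SCR replicate 3 they were -0.28 and -0.26 (adjusted p = 0.0755 and 0.0622). Sqle, squalene epoxidase and a point of sterol control, stood at 11.78 ± 0.15 in normal, 11.92 ± 0.06 in SCR, 11.81 ± 0.16 in KO and 11.91 ± 0.06 in CSH-treated medium. Fdft1, squalene synthase, differed by 0.12, Cyp51, lanosterol demethylase, by -0.27 and Ebp, a sterol isomerase, by -0.11 between SCR and normal medium. These 4 did not pass, with limma adjusted p from 0.0787 to 0.399. Rises (Hsd17b7 and Sc5d) and falls (Lss, Nsdhl and Dhcr7) thus both lay among the later steps of the route.

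**Figure D1:**
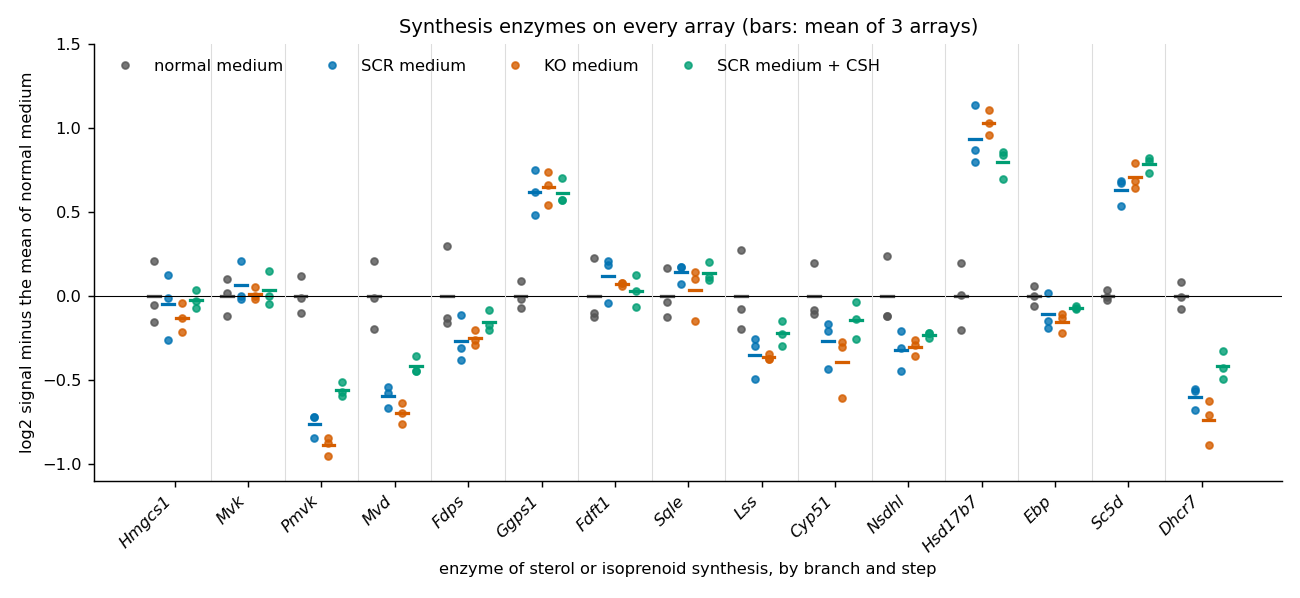
Each point is 1 array, plotted as its log2 signal minus the mean of the 3 arrays in normal medium for that gene (vertical axis, log2 units), for the enzymes of the mevalonate and sterol routes in order of step (horizontal axis); short bars are means of 3 arrays. Ggps1, Hsd17b7 and Sc5d sit above 0 in all conditioned media, Pmvk, Mvd and Dhcr7 below 0, and Hmgcs1, Mvk, Fdft1 and Sqle around 0.

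Promoter sequences are shown for genes that went in different directions, because textbook accounts place sterol response elements (SREs) next to CCAAT boxes bound by NF-Y. RefSeq's table for GRCm38.p6 held promoters for 28 of the 34 genes, 24 of them tested. The 250 bases before each start were searched on both strands for an SRE form spelled TCACNCCAC, for the box spelled CCAAT, for the E-box spelled CACGTG, for the GC box spelled GGGCGG and for DR4, an LXR element form. Overlap between matches of different motifs was allowed. In the runs below, read 5′ to 3′ on the strand of the gene, capitals mark CCAAT on either strand, the E-box and the SRE form, and GC boxes are left in lower case. Each run ends at the base before the gene's start. The CCAAT match of Insig1 and further CCAAT matches of Hmgcs1 lie upstream of the runs shown. For Hsd17b7 the start used in the search lies inside the gene, so its run stops short of that start. Its CCAAT matches 165 to 161 and 12 to 8 bases before the start searched therefore lie outside the run. Mvd (chr8:122443423-122443572, minus strand), Srebf2 (chr15:82147119-82147268, plus strand) and Insig1 (chr5:28071262-28071411, plus strand) fell in SCR medium, Hsd17b7 (chr1:169969243-169969355, minus strand) and Sc5d (chr9:42264301-42264450, minus strand) rose, and Hmgcs1 (chr13:119690201-119690350, plus strand) did not pass.
Mvd: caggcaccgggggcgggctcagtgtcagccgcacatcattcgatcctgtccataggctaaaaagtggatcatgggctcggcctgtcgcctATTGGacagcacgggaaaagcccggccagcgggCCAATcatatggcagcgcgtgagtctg
Srebf2: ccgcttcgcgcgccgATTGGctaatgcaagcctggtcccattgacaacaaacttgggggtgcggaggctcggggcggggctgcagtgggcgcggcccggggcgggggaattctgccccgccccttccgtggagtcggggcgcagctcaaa
Insig1: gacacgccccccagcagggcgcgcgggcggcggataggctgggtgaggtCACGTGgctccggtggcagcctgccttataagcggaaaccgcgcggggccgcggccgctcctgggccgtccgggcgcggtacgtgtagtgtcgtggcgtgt
Hsd17b7: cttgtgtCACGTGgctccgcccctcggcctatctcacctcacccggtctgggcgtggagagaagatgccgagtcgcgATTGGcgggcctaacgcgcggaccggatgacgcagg
Sc5d: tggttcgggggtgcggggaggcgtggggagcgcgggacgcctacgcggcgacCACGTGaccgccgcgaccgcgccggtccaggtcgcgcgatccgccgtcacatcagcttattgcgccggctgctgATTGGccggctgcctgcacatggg
Hmgcs1: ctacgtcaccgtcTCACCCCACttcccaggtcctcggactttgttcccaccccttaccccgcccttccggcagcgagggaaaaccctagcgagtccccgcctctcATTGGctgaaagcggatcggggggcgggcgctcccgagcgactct
The SRE form was found in 1 tested gene, Hmgcs1, 137 to 129 bases before its start, in 1.05% of all 32851 promoters and in 1.17% of the tested genes. CCAAT was found in 10 of 10 genes that fell, 3 of 3 that rose and 7 of 11 that did not pass, against 33.8% of all promoters and 40.1% of 10445 tested genes with a promoter entry. The E-box was found in 2 of 10 that fell (Insig1 and Dhcr7), 2 of 3 that rose (Hsd17b7 and Sc5d) and 3 of 11 others, against 6.02% of all promoters and 9.33% of the tested genes. The GC box stood in 8 of 10, 2 of 3 and 8 of 11, against 32.7% of all promoters and 56.7% of the tested genes, and the LXR element form in none of the 28 genes and 0.0152% of all promoters. So genes that rose and genes that fell both carried CCAAT in this window. These matches describe letters only, base composition was not matched, and a gene with several starts was counted as holding a motif if any start had it, as in the shares of tested genes.

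Among the genes that control SREBP2, 2 of 4 fell in SCR medium, 0 rose and 2 did not pass. Over all genes, 15.8% fell and 19.3% rose. Srebf2 (chromosome 15, 82147269 to 82205379) read 11.05, 10.61 and 10.75 in normal medium, 10.42, 10.13 and 10.40 in SCR medium, 10.37, 10.29 and 10.28 in KO medium and 10.49, 10.33 and 10.23 with CSH. All conditioned arrays were lower than all normal arrays, and the fall was -0.49 (SE 0.11, limma adjusted p = 0.00412) in SCR medium. Insig1, a partner of Scap and itself an SREBP2 target, read 10.99, 10.50 and 10.56 in normal medium and 10.36, 10.12 and 10.26 in SCR medium. In KO medium it read 10.20, 10.25 and 10.31, and with CSH 10.34, 10.34 and 10.28. Normal replicate 2 stood well above the other normal arrays, so the fall of -0.44 (SE 0.11, limma adjusted p = 0.0069) in SCR medium shrank to -0.28 (adjusted p = 0.0154) without it. Insig2, whose product acts likewise, held 10.65 ± 0.05 in normal and 10.64 ± 0.03 in SCR medium, with an interval of -0.14 to 0.12 for the difference. Scap differed by 0.16 (SE 0.09, limma adjusted p = 0.22).

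Of the 5 genes of lysosomal release, transfer and storage, 1 rose and 2 fell in SCR medium, against 19.3% and 15.8% of all genes. Npc1, the membrane protein that lets cholesterol out of the lysosome, showed the largest rise among the 30 genes in SCR medium. It read 11.09, 11.11 and 11.10 in normal medium, 12.25, 11.93 and 12.12 in SCR medium, 12.39, 12.26 and 12.35 in KO medium and 12.09, 11.83 and 12.03 with CSH. Normal arrays lay within 0.02 of each other and every conditioned array was higher, with a change of 1.00 (SE 0.09, limma adjusted p = 2.06e-06), a 2.00-fold rise. Lipa, the lysosomal acid lipase that frees cholesterol from its esters (chromosome 19, 34492316 to 34527474), fell. Its arrays read 15.84, 15.79 and 15.75 in normal medium, 15.12, 14.88 and 15.10 in SCR medium, 14.73, 14.87 and 14.56 in KO medium and 15.18, 15.41 and 15.09 with CSH. Normal arrays were the highest and KO arrays the lowest, and the change in SCR medium was -0.76 (SE 0.09, limma adjusted p = 4.32e-05). Stard4, a carrier of cholesterol between membranes, fell from 8.51 ± 0.13 to 8.22 ± 0.05. Npc2, the soluble partner of Npc1, stood at 10.85 ± 0.06 and 10.78 ± 0.10, and Nceh1, a hydrolase of cholesteryl esters, at 9.72 ± 0.04 and 9.69 ± 0.13; neither passed.

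Of the LXR genes and LXR targets, 3 of 6 tested fell in SCR medium and 0 rose, against 15.8% and 19.3% of all genes. Pltp, a phospholipid transfer protein (chromosome 2, 164839518 to 164857708), had the largest fall of the 30. It read 10.24, 9.96 and 10.06 in normal, 9.37, 9.04 and 9.16 in SCR, 8.98, 8.88 and 8.96 in KO and 9.26, 9.23 and 9.16 in CSH-treated medium. The conditioned arrays all lay below the normal ones, and the change in SCR medium was -0.90 (SE 0.09, limma adjusted p = 6.41e-06). Abcg1, which exports cholesterol to high-density lipoprotein (chromosome 17, 31057694 to 31117984), read 11.31, 11.32 and 11.27 in normal medium, 10.96, 10.66 and 10.86 in SCR medium, 10.67, 10.68 and 10.69 in KO medium and 11.06, 10.94 and 10.74 with CSH. Mylip, the ubiquitin ligase that marks lipoprotein receptors for decay, read 9.66, 9.74 and 9.73 in normal medium, 9.30, 9.21 and 9.07 in SCR medium, 9.14, 8.98 and 9.42 in KO medium and 9.27, 9.11 and 9.01 with CSH. Neither gene's conditioned arrays overlapped its normal ones, and in SCR medium Abcg1 changed by -0.47 (SE 0.09) and Mylip by -0.52 (SE 0.10).

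Abca1, the transporter that loads apolipoproteins with cholesterol (chromosome 4, 53030789 to 53159988), did not pass in SCR medium. It read 10.66, 10.67 and 10.72 in normal medium, 10.44, 10.30 and 10.70 in SCR medium, 10.82, 10.90 and 10.84 in KO medium and 10.27, 10.59 and 10.13 with CSH. KO arrays were the highest, SCR arrays overlapped the normal ones, and the difference was -0.20 (SE 0.11, limma adjusted p = 0.198). Nr1h3, which encodes LXR alpha, averaged 7.84 ± 0.12 in normal medium and differed from it by 0.16 in SCR medium (SE 0.07, limma adjusted p = 0.0934). Apoe, an apolipoprotein that accepts cellular cholesterol, averaged 6.89 ± 0.01 in normal medium, differed by 0.11 in SCR medium and did not pass. Arrays of whole cultures cannot tell fewer expressing cells from less RNA per cell.

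**Figure D2:**
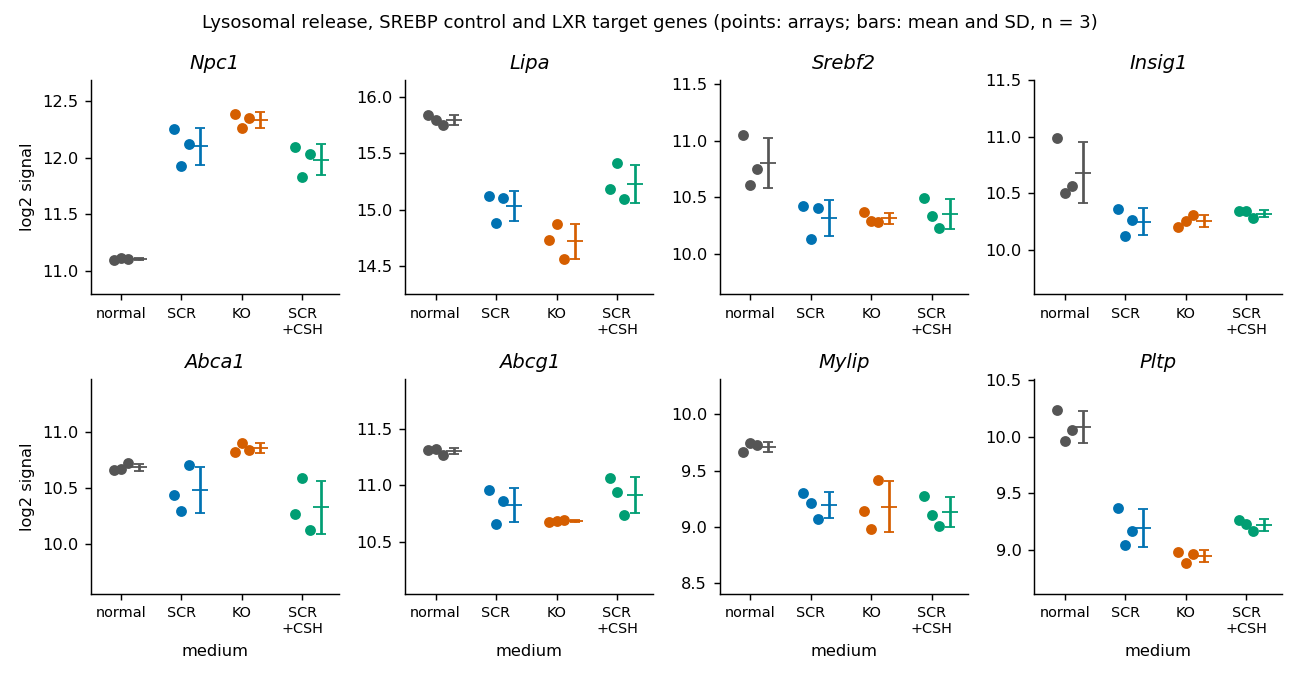
Log2 signal (vertical axis) by medium (horizontal axis) for Npc1, Lipa, Srebf2, Insig1, Abca1, Abcg1, Mylip and Pltp; points are single arrays, and bars give the mean and SD of 3 arrays, with each panel spanning the same number of log2 units. Conditioned arrays lie above normal ones for Npc1 and below them for Lipa, Srebf2, Insig1, Abcg1, Mylip and Pltp, while Abca1 is highest in KO medium, at 10.82 to 10.90.

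KO medium and CSH-treated SCR medium were then set against the same normal arrays, so these comparisons share their controls with that of SCR medium. In KO medium 4 of the 30 rose, 13 fell and 13 did not pass, 56.7% changed, against 39.1% of all genes (21.4% up and 17.6% down). With CSH 5 rose, 11 fell and 14 did not pass, 53.3% changed, against 35.8% of all genes (20.9% up and 14.9% down). The medians were -0.14 and -0.13. Arrays did not overlap with normal medium for 22 of the 30 in KO medium, 6 higher and 16 lower, against 49.8% of all genes, 26.8% higher and 23.0% lower. With CSH they did not overlap for 17, 5 higher and 12 lower, against 46.8%, 27.5% higher and 19.4% lower. Npc1 rose by 1.23 (SE 0.09) in KO medium and by 0.88 (SE 0.09) with CSH, and Hsd17b7 by 1.03 and 0.80 (SE 0.11 each). Sc5d rose by 0.71 and 0.79 and Ggps1 by 0.65 and 0.61 in KO and CSH-treated medium. Scap passed with CSH (0.33, SE 0.09, limma adjusted p = 0.015) and not in KO medium (0.23, adjusted p = 0.0693). Its call with CSH was lost without normal replicate 2 or CSH replicate 1 (0.30 and 0.28, adjusted p = 0.0575 and 0.0646).

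Pltp fell by 1.15 on the log2 scale in KO medium and by 0.87 with CSH, and Lipa fell by 1.07 and by 0.57. Pmvk fell by 0.89 and 0.56, Dhcr7 by 0.74 and 0.42, Mvd by 0.70 and 0.42, and Abcg1 by 0.62 and 0.39. Mylip changed by -0.53 and -0.58, and Srebf2 by -0.49 and -0.45, in KO and CSH-treated medium. For these genes of synthesis, control and efflux the calls held with any single array left out. Cyp51 (-0.40, limma adjusted p = 0.0118), Lss (-0.37) and Nsdhl (-0.30) fell in KO medium, and with CSH stood at -0.14, -0.22 and -0.23 and did not pass. In KO medium the call of Cyp51 was lost without normal replicate 2 (-0.30, adjusted p = 0.0591) or KO replicate 2 (-0.29, adjusted p = 0.0578). That of Nsdhl was lost without normal replicate 2 (-0.18, adjusted p = 0.0809) or KO replicate 3 (-0.28, adjusted p = 0.0675), and the fall of Lss was -0.23 without normal replicate 2.

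Insig1 fell in both media, by 0.43 in KO medium and by 0.36 with CSH. Without normal replicate 2 these falls were -0.28 and -0.21, and the second lost the call (adjusted p = 0.0609), as it did without CSH replicate 4 (-0.34, adjusted p = 0.0594). Stard4 fell by 0.37 in KO medium and by 0.23 with CSH. The CSH value lost its call when normal replicate 2 or 3, or replicate 1 or 4 of the CSH group, was left out (adjusted p up to 0.10). Abca1 changed by 0.17 in KO medium (SE 0.11, limma adjusted p = 0.275) and by -0.35 with CSH (SE 0.11, limma adjusted p = 0.0272), the latter not held without any 1 of the normal arrays or CSH replicate 1 or 4 (adjusted p up to 0.121).

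**Figure D3:**
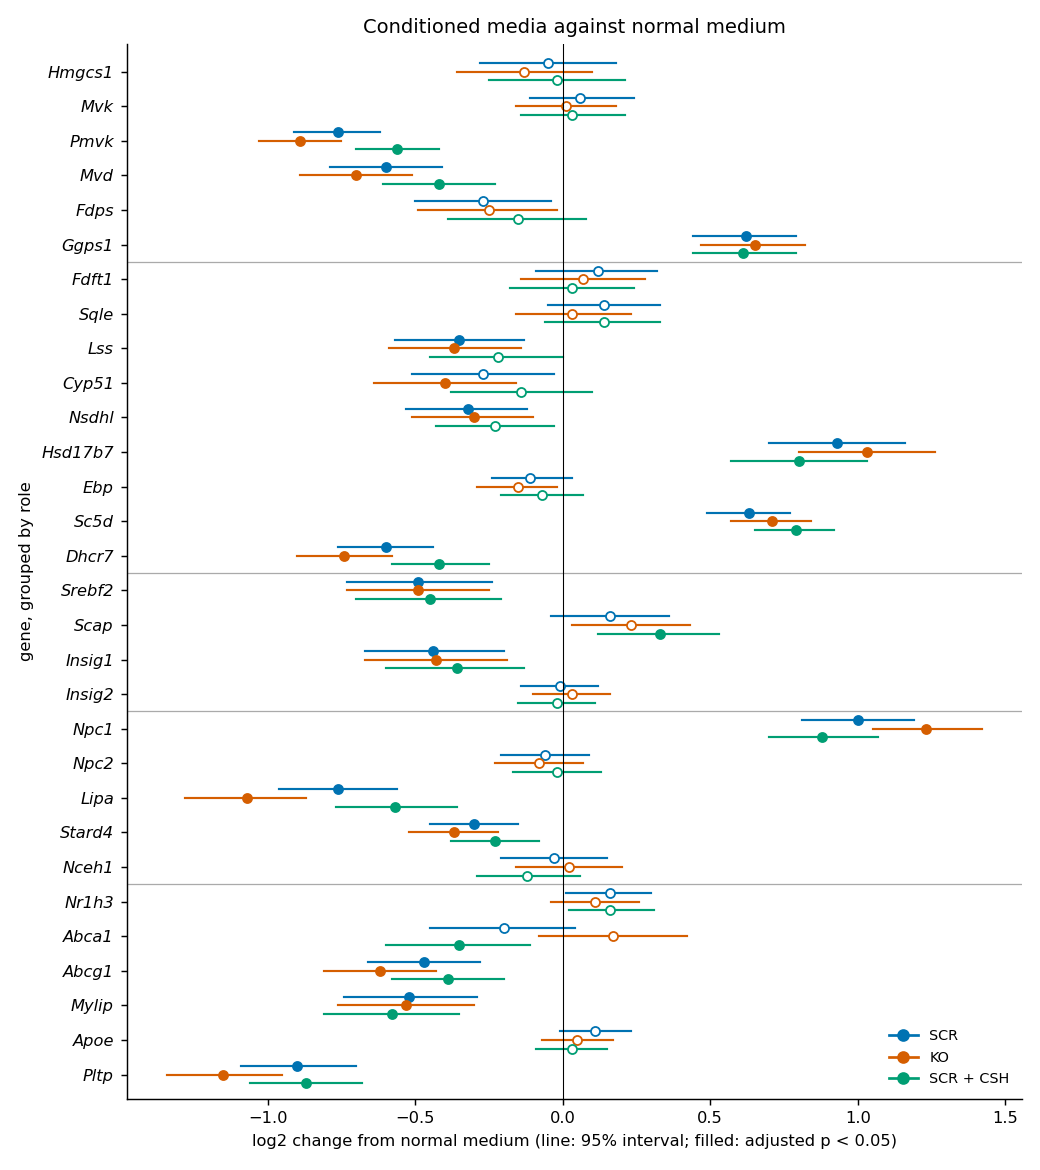
Log2 change from normal medium (horizontal axis) of the 30 tested genes (vertical axis, grouped by role) in SCR, KO and CSH-treated SCR medium; points are estimates of the limma fit, lines 95% intervals, and filled points passed at an adjusted p below 0.05. Npc1, Hsd17b7, Sc5d and Ggps1 lie to the right in all 3 media, and Pltp, Lipa, Pmvk, Mvd and Dhcr7 to the left.

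Setting KO medium against SCR medium asks if loss of JMJD6 in the conditioning cells matters to these genes. Of the 30, 0 passed in limma and 4 had an unadjusted p below 0.05, against 0.270% of all genes called (0.254% higher and 0.0166% lower) and 5.95% below that unadjusted p. The 4 were Lipa (-0.31, 95% interval -0.52 to -0.11, limma adjusted p = 0.432), Abca1 (0.37, 0.13 to 0.62, limma adjusted p = 0.438), Pltp (-0.25, -0.44 to -0.06, limma adjusted p = 0.602) and Npc1 (0.23, 0.05 to 0.42, limma adjusted p = 0.641). The arrays of these 4, and of no other of the 30, did not overlap between the media, 2 higher and 2 lower, against 9.37% of all genes, of which those lower in KO medium made up 4.37% of all genes. With array weights 1 of the 30 passed, Lipa (-0.34, adjusted p = 0.0339). Hmgcs1 differed by -0.08 (interval -0.31 to 0.15), Sqle by -0.11 (-0.30 to 0.09) and Srebf2 by 0.00 (-0.25 to 0.24). Over the 30 the median difference was -0.03, and over all genes 0.00.

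CSH added to SCR medium also gave 0 calls among the 30 in limma, with 3 at an unadjusted p below 0.05, against 0% of all genes called and 6.24% below that unadjusted p. Those 3 were Pmvk (0.20, 95% interval 0.06 to 0.35, limma adjusted p = 0.715), Sc5d (0.16, 0.02 to 0.29) and Dhcr7 (0.18, 0.02 to 0.35), the last 2 with limma adjusted p = 0.77. Arrays did not overlap for 5 of the 30, all higher with CSH, against 8.59% of all genes, 5.51% higher and 3.09% lower; besides these 3 they were Mvd (0.18) and Stard4 (0.07). Hsd17b7 differed by -0.14 (interval -0.37 to 0.09), Npc1 by -0.12 (-0.30 to 0.07) and Abca1 by -0.15 (-0.40 to 0.10). The median over the 30 was 0.04 and over all genes 0.01. These comparisons of KO medium and of CSH share the SCR arrays.

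Between KO medium and CSH-treated SCR medium 3 of the 30 genes differed, 1 higher and 2 lower in KO medium, which is 10.0% of them against 1.90% of all genes (1.21% higher and 0.695% lower). Abca1 was higher in KO medium by 0.52 (SE 0.11, limma adjusted p = 0.0376), Lipa lower by -0.51 (SE 0.09, limma adjusted p = 0.0186) and Pmvk lower by -0.33 (SE 0.07, limma adjusted p = 0.024). Each call was lost under some settings. Leaving out single arrays gave adjusted p up to 0.116 for Abca1 (lost without any 1 of the normal or KO arrays or CSH replicate 1 or 4), up to 0.0779 for Lipa (KO replicate 1 or 3 or CSH replicate 2) and up to 0.116 for Pmvk (any 1 of the KO arrays or CSH replicate 2 or 4), and median centring of the arrays gave 0 calls. Fitting the 6 arrays alone ended the calls of Lipa and Abca1 (adjusted p = 0.0744 and 0.0807), quantile normalization that of Lipa (-0.43, adjusted p = 0.0674) and the lack of a filter that of Abca1 (adjusted p = 0.0697). Dhcr7 (-0.32, limma adjusted p = 0.0521) and Npc1 (0.35, limma adjusted p = 0.0618) came next and did not pass. For 14 of the 30 the arrays did not overlap, 3 higher and 11 lower in KO medium, against 21.8% of all genes, 9.72% higher and 12.1% lower. The 11 lower were Pmvk, Mvd, Lss, Cyp51, Nsdhl, Ebp, Dhcr7, Lipa, Stard4, Abcg1 and Pltp, and the 3 higher were Hsd17b7, Npc1 and Abca1. The median was -0.08 over the 30 and -0.02 over all genes.

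**Figure D4:**
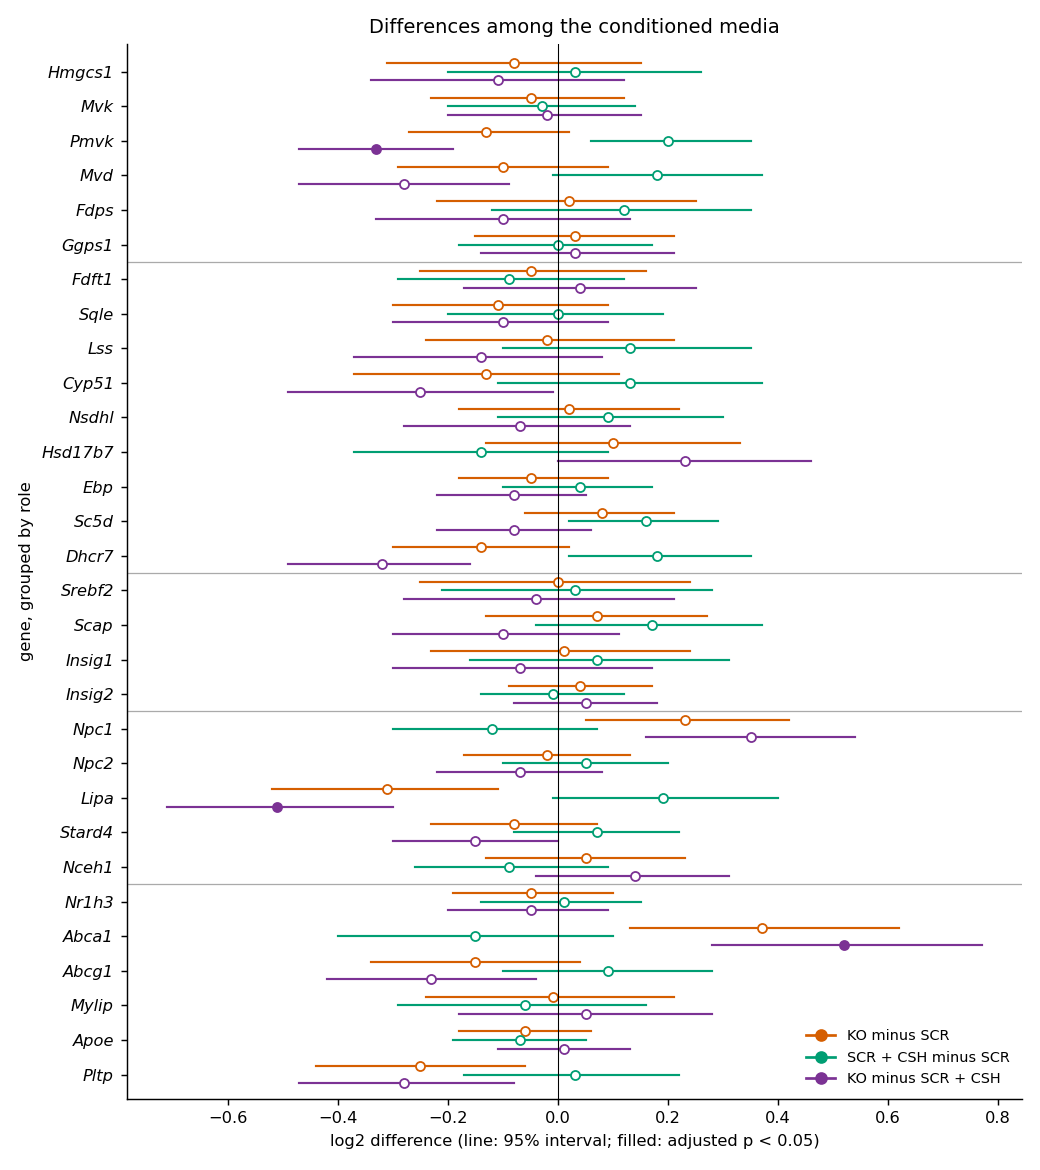
Log2 differences (horizontal axis) of the 30 tested genes (vertical axis, grouped by role) between KO and SCR medium, between SCR medium with and without CSH, and between KO medium and SCR medium with CSH; points are estimates of the limma fit, lines 95% intervals, and filled points passed at an adjusted p below 0.05. Only Pmvk, Lipa and Abca1 have a filled point, all for KO medium against SCR medium with CSH.

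Other genes of sterol metabolism were taken as a list of 51, also chosen with earlier results known. Of these, 34 were named and 29 tested. In SCR medium 9 rose, 6 fell and 14 did not pass, 51.7% changed against 35.2% of all genes (19.3% up and 15.8% down), with a median of 0.04. Erlin1 (1.02, SE 0.08) and Erlin2 (0.88, SE 0.08), which help remove a sterol synthesis enzyme and hold SREBP precursors in the endoplasmic reticulum, and Gramd1b (0.74, SE 0.07), a carrier of cholesterol from the plasma membrane, had the smallest p among the rises. Acat1, the mitochondrial acetoacetyl-CoA thiolase (-0.94, SE 0.07), Cyp27a1, which makes 27-hydroxycholesterol (-1.04, SE 0.09), and Scarb1, a receptor for high-density lipoprotein (-0.95, SE 0.09), led the falls. In KO medium against normal medium 8 rose and 6 fell, 48.3% against 39.1% of all genes, and with CSH 10 rose and 7 fell, 58.6% against 35.8%. Against SCR medium 0 of the 29 passed in limma for either KO medium or CSH, against 0.270% and 0% of all genes. An unadjusted limma p below 0.05 was reached by 3 and 1 of them, against 5.95% and 6.24% of all genes. With array weights Erlin1 (0.24 in the fit reported) passed for KO against SCR medium. Between KO medium and SCR medium with CSH 1 of the 29 fell and 0 rose, 3.45% against 1.90% of all genes (0.695% lower). It was Cyp27a1 (-0.52, SE 0.09, limma adjusted p = 0.0145). Its call was lost without KO replicate 2 or 3 or CSH replicate 2 (adjusted p up to 0.0735).

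Arrays of the same medium also differed from each other in these genes. In normal medium, replicate 2 was the highest of the 3 arrays for 20 of the 30 genes, against 37.9% of all genes tested, and for 5 of 6 mevalonate and 8 of 9 later synthesis enzymes. Fdps, for example, read 13.50 on that array against 13.04 and 13.07. In SCR medium, replicate 1 was highest for 24 of the 30 and replicate 3 lowest for 25, against 45.2% and 47.4% of all genes. The median SD of the later synthesis enzymes was 0.17 in normal medium, 0.12 in SCR, 0.08 in KO and 0.08 in CSH-treated medium, where all genes had 0.08, 0.09, 0.07 and 0.08. The LXR genes were tighter in normal medium, with a median SD of 0.04. The part of these array differences in the results above was examined only by leaving out single arrays and by the other settings described at the end.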

How the data were processed

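RNA of 12 samples was measured on Affymetrix arrays, 1 array each. The deposited values are log2 signals per probe set, made with RMA in Affymetrix Expression Console and tied to mm10, per the submitters' processing notes; versions, and whether probes were filtered or batches corrected, were not given in the sources used here. RMA equalises the distribution of signals between arrays, so a shift shared by all genes cannot be seen, and the number of arrays limits the precision.

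Of 65528 probe sets, 31018 carried 1 gene symbol, 1478 several and 33032 none in the platform table; symbols were updated through RefSeq's GRCm38.p6 table. Each gene was represented by its probe set of highest mean. Genes above the array median on at least 3 arrays were tested (18119). limma 3.58.1 in R 4.3.3 fitted group means over all 12 arrays with a trended eBayes, without a replicate block, and p-values were adjusted by Benjamini-Hochberg over all genes tested, with a threshold of 0.05. Comparisons that share a group are not independent. Simulated data for SCR against normal medium held 18119 genes, 200 of them changed. The fit recovered 82 of 100 genes changed by 0.58 and 100 of 100 changed by 1, with 11 false calls. Far more genes, 35.2%, were called in the data, and the simulated noise was independent between genes, so these rates do not describe the real comparison.

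All 34 genes were to be named, with up to 3 rises and 3 falls of smallest p from the other pathway genes. The members and lists were chosen with earlier results of these data known. Alternatives covered the filter, normalization, variance model, array weights, probe sets, replicate block, arrays in the fit, single arrays left out and the threshold. Python 3.11.15 and matplotlib 3.10.9 made the plots.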

Additional observations from a re-analysis of the deposited data

How the results depend on the processing

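The calls against normal medium were stable in number. Leaving out single arrays gave 14 to 18 of the 30 genes in SCR medium, 15 to 19 in KO medium and 12 to 17 with CSH. The shares of all genes called in these fits were 29.8% to 35.1%, 33.9% to 40.8% and 29.9% to 37.5%. No gene that passed, in the fit reported or in the alternative, changed sign under the alternatives run. Genes near 0 that did not pass did change sign, such as Hmgcs1 in SCR medium (-0.14 to 0.06 with single arrays left out). KO against SCR medium and CSH against SCR medium stayed at 0 calls with each array left out; array weights, whose estimation stopped before its tolerance was met, gave 1 call (Lipa) for KO against SCR medium. KO medium against SCR medium with CSH, with 3 calls, gave 0 after median centring, 5 with array weights, 1 from its 6 arrays alone, 0 at an adjusted p below 0.01 and 0 to 4 with single arrays left out. The cause was not tested.

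Over all genes, KO against SCR medium gave 49 calls, but 376 with array weights, 33 without a filter, 22 from its 6 arrays alone, 19 at an adjusted p below 0.01 and 20 to 50 with single arrays left out. CSH against SCR medium gave 0, but 79 with array weights. KO medium against SCR medium with CSH gave 345, but 154 after median centring, 654 with array weights, 574 after quantile normalization, 210 without a filter, 214 with the replicate block, 162 from its 6 arrays alone, 80 at an adjusted p below 0.01 and 107 to 373 with single arrays left out. Scaling moved the median of all genes by at most 0.02.

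Same-numbered arrays of different groups had correlated deviations of -0.07 to 0.29 (12 pairs, median 0.07, 5 above 0.1) against a median of -0.04 for 42 pairs of different number. Not every pair was above 0.1, so the numbers were not taken as a pairing; the 3 pairs of replicate 1 (0.14, 0.21 and 0.29) were above it, and whether some arrays share a batch was not tested. With the replicate block, 17 of the 30 genes were called in SCR, 18 in KO and 18 in CSH-treated medium against normal medium. The shares of all genes under the block were 32.3%, 37.4% and 34.5%. It gave 0 calls for KO and 0 for CSH against SCR medium, against 0.215% and 0% of all genes. For KO medium against SCR medium with CSH it gave 2 of the 30, against 1.18% of all genes. In that last comparison, Lipa was called in both fits and Npc1 passed under the block (0.38, limma adjusted p = 0.0436). Pmvk (-0.31, adjusted p = 0.0678) and Abca1 (0.56, adjusted p = 0.0623) did not pass under it. The block also called Fdps in SCR and KO medium and Lss and Nsdhl with CSH, all lower than in normal medium. Of 12 arrays, 5 correlated best with their own number.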
